A study of Homo sapiens with 17 samples.

Results

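The genes described here are 37 of the longest in the human genome. They are neuronal adhesion, receptor and synaptic scaffold genes, together with genes that lie in common fragile sites. They were taken from a list of names that was chosen with earlier results of these data known. A peak belongs to a gene when its summit, the base of strongest signal, lies inside the gene's span in the RefSeq table of GRCh38.p14. All 37 were found, on 15 chromosomes. They run from 643 kb (LSAMP) to 2474 kb (RBFOX1), with a median of 1220 kb, and cover 52.9 Mb, 1.85% of the chromosome span considered. They hold 3767 of the 208775 peaks in the 8 combined lists.

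The peaks come from ChIP-seq with a Flag antibody in U2OS, a human osteosarcoma line, carrying Tet-on constructs that express a Flag-tagged factor when doxycycline is given. The 8 groups expressed FOXA1, FOXA2 or FOXA3 at full length, each of these with its C-terminal domain (CTD) deleted, SOX2 at full length, or SOX2 fused to the CTD of FOXA2. Doxycycline was given to every group over 4 days, at 500 ng/ml by the treatment label, although the extraction protocol writes the same figure per microlitre. There were 2 biological replicates in each group and 1 input, 17 samples in all, and each group is represented by 1 list combined from both replicates. The labels call the lines stable and do not say whether a line is a single clone. With 1 list per group there is no replicate test. All intervals below are 95% intervals that cover counting error over peaks only, and library depth was not given.

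FOXA proteins are forkhead pioneer factors, which can bind their sites in chromatin that is otherwise closed and are best known from endoderm and its organs. SOX2 is a pioneer factor of the HMG-box family, known from pluripotent and neural cells. Very long genes consist almost wholly of intron, are mostly transcribed in neurons, and take so long to transcribe and replicate that several of them break under replication stress, which is what the name fragile site refers to. A long gene thus offers a pioneer factor a wide stretch of DNA that is far from any promoter.

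Few peaks lay at a start of transcription of these genes, so some of the starts that a peak touched are shown first. A peak at a start can have its summit just outside the gene. RefSeq lists 78 starts for 31 of the genes. NEGR1, CDH13, CSMD1, CSMD3, LRP1B and SGCZ were not matched in the RefSeq table of starts. The 250 bases before 5 of these starts are printed 5′ to 3′ on the gene's strand, in GRCh38.p14, and capitals mark the stretch from 10 bases before the first summit to 10 bases after the last. These 5 were picked because summits fell inside the window, for the first 4 in more than 1 list and for WWOX in the fusion list.
DLG2, internal start, chr11:84317338-84317587, minus strand: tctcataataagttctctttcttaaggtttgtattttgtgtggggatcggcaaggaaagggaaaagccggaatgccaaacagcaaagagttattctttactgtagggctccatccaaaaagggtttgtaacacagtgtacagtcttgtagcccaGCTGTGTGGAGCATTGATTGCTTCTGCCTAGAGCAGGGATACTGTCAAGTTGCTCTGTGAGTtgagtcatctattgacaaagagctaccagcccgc
CTNNA3, internal start, chr10:67665661-67665910, minus strand: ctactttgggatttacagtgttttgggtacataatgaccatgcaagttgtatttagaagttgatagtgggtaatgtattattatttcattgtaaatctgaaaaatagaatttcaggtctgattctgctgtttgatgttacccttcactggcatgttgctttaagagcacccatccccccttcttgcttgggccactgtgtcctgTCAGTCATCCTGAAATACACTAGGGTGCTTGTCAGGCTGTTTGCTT
PCDH15, internal start, chr10:54801232-54801481, minus strand: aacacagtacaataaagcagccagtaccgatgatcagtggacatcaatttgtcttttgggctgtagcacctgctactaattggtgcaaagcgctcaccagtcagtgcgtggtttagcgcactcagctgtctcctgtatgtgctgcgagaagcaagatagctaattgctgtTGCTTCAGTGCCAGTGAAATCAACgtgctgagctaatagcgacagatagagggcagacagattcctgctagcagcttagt
NRXN3, internal start, chr14:79279130-79279379, plus strand: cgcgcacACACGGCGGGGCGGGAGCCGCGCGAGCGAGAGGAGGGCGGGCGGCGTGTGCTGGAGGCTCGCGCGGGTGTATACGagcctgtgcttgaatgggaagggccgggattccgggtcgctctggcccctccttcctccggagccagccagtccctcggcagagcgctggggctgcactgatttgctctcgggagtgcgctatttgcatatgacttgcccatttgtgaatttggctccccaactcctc
WWOX, start of the gene, chr16:78099404-78099653, plus strand: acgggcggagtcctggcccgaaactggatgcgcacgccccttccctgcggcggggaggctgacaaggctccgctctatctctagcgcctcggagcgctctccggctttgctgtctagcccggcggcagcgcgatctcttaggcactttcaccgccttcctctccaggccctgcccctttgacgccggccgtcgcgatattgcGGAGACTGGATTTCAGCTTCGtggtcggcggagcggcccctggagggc

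The DLG2 window held a summit of all 6 FOXA lists, between 45 and 86 bases before the start. DLG2 codes for a postsynaptic scaffold protein. The CTNNA3 window held a summit of both FOXA1 lists, 5 and 36 bases before the start. The PCDH15 window held one of FOXA1 at full length and one of FOXA2 without its CTD, and the NRXN3 window one of each full-length FOXA1 and FOXA2 list. The WWOX window held a summit of the SOX2-FOXA2 CTD fusion alone, 38 bases before the start. The window before the start of DAB1, not printed, held a summit of FOXA2 without its CTD alone, 84 bases before the start. The WWOX and DAB1 summits lie outside the gene spans and are not among the peaks counted in the genes. By that count WWOX had 0 fusion peaks. The forkhead letters TGTTTAC, the variant TGTTTGC and the further variant TATTTAC were searched on both strands, and 8.27% of all 34961 windows of 250 bases hold at least 1 of them. Among the 5 windows printed, TGTTTGC occurs in that of CTNNA3, beginning 9 bases before the start. The SOX letters ACAATG, together with the variant ACAAAG, found in 21.2% of all windows, occur as ACAAAG in the DLG2 window and as ACAATG in the CTNNA3 window. A match is a description of the letters and not a bound site.

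Over all 78 starts, peaks of FOXA1 at full length lay at 6 (7.69%), against 6.18% of the 34961 starts of all genes. After CTD deletion FOXA1 peaks lay at 4 (5.13%, against 1.74%). FOXA2 peaks lay at 2 starts at full length (2.56%, against 5.67%) and at 6 after deletion (7.69%, against 4.81%). Each FOXA3 list and the fusion list had 1, and the SOX2 list had 0. These numbers are too small to separate the lists.

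The first question was how densely the factors occupied these genes. The number of peaks expected in a gene was its length times the mean density of its chromosome, taken outside the 37 genes and outside the chromosome's longest stretch without an annotated gene. FOXA1 and FOXA2 at full length occupied the genes at the chromosomes' mean. FOXA1 at full length had 700 peaks in them, 13.2 per Mb, where 698.9 were expected, a ratio of 1.00 (0.929 to 1.08). FOXA2 at full length had 805, or 15.2 per Mb, a ratio of 1.00 (0.935 to 1.07). FOXA1 without its CTD had 1128 peaks, 21.3 per Mb against 17.6 expected, a ratio of 1.21 (1.14 to 1.28). FOXA2 without its CTD had 896, 16.9 per Mb against 18.4 expected, a ratio of 0.920 (0.861 to 0.982). The FOXA2 value without the CTD had an interval including 1 against the genes' flanks (0.963, 0.901 to 1.03), against other long genes (0.958, 0.896 to 1.02), with gene-free stretches in the mean (0.938, 0.877 to 1.00) and at an IDR of at most 0.01 (0.825, 0.669 to 1.01). IDR is the irreproducible discovery rate between replicates. With equal numbers of the strongest peaks per list the FOXA1 ratio without the CTD was 1.10 (0.908 to 1.31), and at an IDR of at most 0.01 the full-length FOXA1 ratio was 0.720 (0.527 to 0.961).

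FOXA3 and the SOX2 constructs had fewer peaks than expected in these genes. FOXA3 had 73 peaks at full length, 1.38 per Mb and a ratio of 0.756 (0.592 to 0.950), and 84 without its CTD, 1.59 per Mb and a ratio of 0.729 (0.581 to 0.903). The SOX2-FOXA2 CTD fusion had 80, 1.51 per Mb and a ratio of 0.739 (0.586 to 0.920). Against the genes' flanks all 3 intervals included 1, with ratios of 0.880 (0.689 to 1.11), 0.824 (0.657 to 1.02) and 0.865 (0.686 to 1.08), and so they did against other long genes (0.885, 0.878 and 0.930). SOX2 had 1 peak where 2.02 were expected (ratio 0.496, 0.0125 to 2.76). Of its 1365 peaks 1245 lay in the gene-free stretches, and with these in the chromosome's mean the ratio was 0.0481 (0.00122 to 0.268). The lists of the first replicate alone are longer. In them SOX2 had 214 peaks in the genes (ratio 0.882, 0.768 to 1.01) and the fusion 781 (ratio 1.01, 0.945 to 1.09), so the low value of the fusion's combined list was absent from its first replicate.

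**Figure D1:**
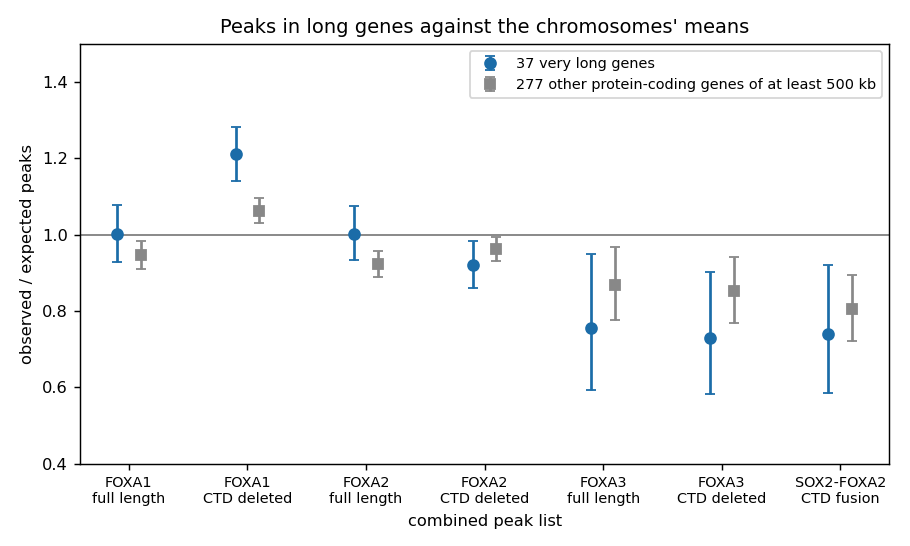
Observed over expected peaks (y axis, no unit) in 7 combined lists (x axis) for the 37 genes (circles) and for 277 other protein-coding genes of at least 500 kb (squares), with exact Poisson 95% intervals; SOX2, with 1 peak, is not drawn. FOXA1 without its CTD stands at 1.21 in the 37 genes and 1.06 in the other long genes, and both FOXA3 lists and the fusion lie under 1 in both sets.

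The 277 other protein-coding genes of at least 500 kb show what long genes have in common. They cover 208 Mb, against 52.9 Mb for the 37 genes, so they are shorter on average and hold fewer peaks each. Shares of genes whose interval excludes 1, or with more peaks in 1 list, depend on length too and are not like for like. The pooled ratios of the other long genes were 0.947 and 1.06 for FOXA1 at full length and without its CTD, 0.923 and 0.963 for FOXA2, 0.869 and 0.851 for FOXA3, and 0.805 for the fusion. The sparse FOXA3 and fusion lists were thus also below the mean in other long genes. Gene by gene, 16 of the 37 were above their chromosome's mean for FOXA1 at full length, against 41.5% of the other long genes, and 22 for FOXA1 without its CTD, against 48.7%. For FOXA2 these counts were 17 (against 40.8%) and 11 (against 39%). For FOXA3 they were 12 (against 30.3%) and 11 (against 31.8%), for the fusion 10 (against 27.1%) and for SOX2 1 (against 1.08%). Median strengths inside and outside the 37 genes were close. Taking the lower −log10 p of both replicates as the strength of a peak, the median was 4.10 inside the genes and 4.08 outside for FOXA1 at full length, and 2.96 in both for FOXA2 without its CTD.

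Single genes differed far more than the pooled values. All 4 FOXA1 and FOXA2 lists were above the chromosome's mean in 10 genes, against 26% of the other long genes, and all 4 were under it in 14, against 42.2%. The 95% intervals of all 4 lists lay above 1 in 6 genes (LSAMP, CDH12, CDH18, PCDH15, CTNNA3 and EYS), against 6.5% of the other long genes, and below 1 in 7 (OPCML, NTM, CNTNAP2, CSMD1, PTPRT, GPC5 and FHIT), against 7.94%. The other long genes are shorter on average, so fewer of their intervals exclude 1 at the same ratio. Across the 37 genes the density ratios of any 2 of these 4 lists had a Spearman rho between 0.895 and 0.937. The genes were the same, and the lists share base composition and the ease of mapping reads, so this is a description of a common order. Length went with the number of peaks only weakly, with a rho from 0.118 to 0.356.

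**Figure D2:**
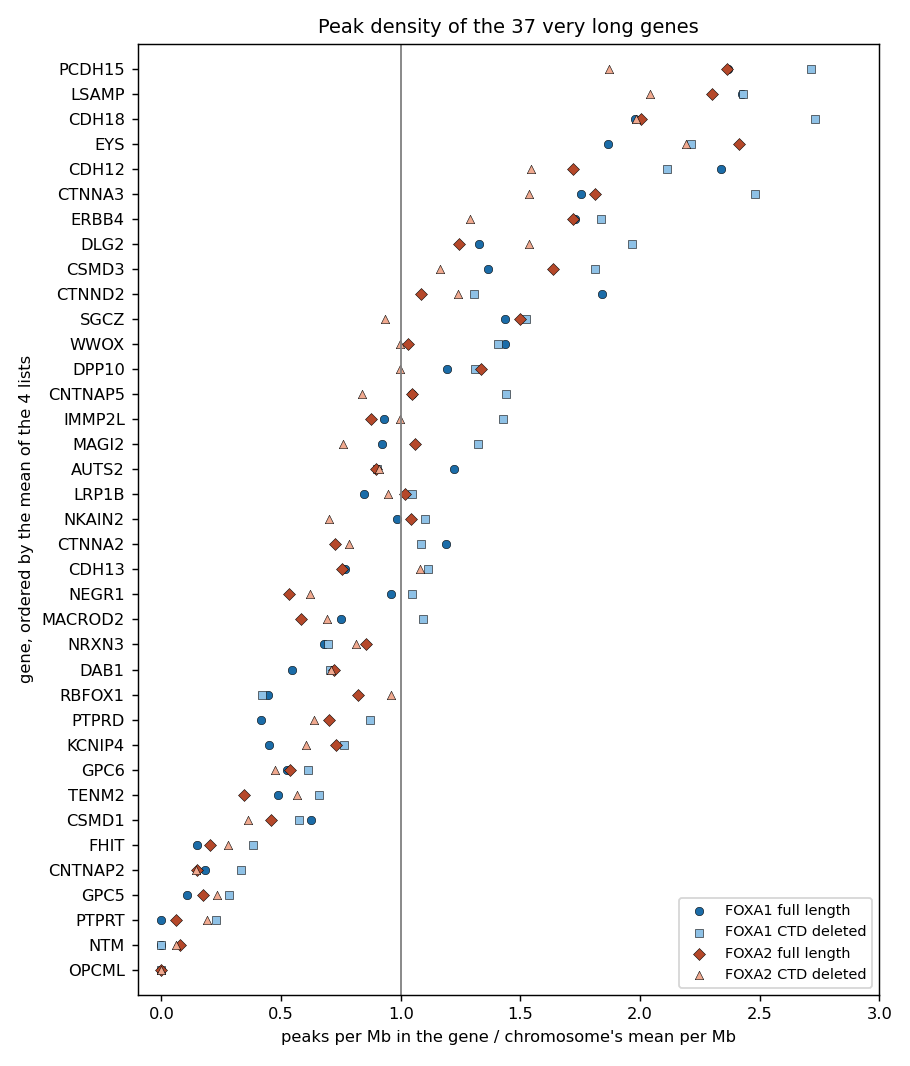
Peaks per Mb in each of the 37 genes divided by the mean per Mb of its chromosome (x axis, no unit), for the 4 FOXA1 and FOXA2 lists, with genes on the y axis ordered by the mean of the 4 values. The genes run from 0 (OPCML) to a mean of 2.33 (PCDH15), and the order of genes is much alike in the 4 lists. Values of a single gene can still differ, as in CTNNA3 (1.53 to 2.48). In RBFOX1 the FOXA1 lists stand at 0.445 and 0.422 and the FOXA2 lists at 0.821 and 0.961.

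The cadherins and catenins, which join neighbouring cells and tie those junctions to actin, had the highest pooled ratio of the 9 groups of genes in the FOXA1 and FOXA2 lists. Their 7 genes had 237 FOXA1 peaks at full length where 131.6 were expected (ratio 1.80, 1.58 to 2.05) and 354 without the CTD (2.05, 1.84 to 2.27). FOXA2 had 236 (1.60, 1.40 to 1.81) and 265 (1.47, 1.30 to 1.66). PCDH15, a protocadherin of the tip links of sensory hair cells, led all genes with a mean ratio of 2.33. It held 68 peaks of FOXA1 at full length, 95 of FOXA1 without its CTD, 72 of FOXA2 at full length and 78 of FOXA2 without its CTD. All 4 of these lists were high in it. CDH18, a type II cadherin of the nervous system, had a mean ratio of 2.17, with 28, 57, 35 and 36 peaks in the same order of lists. Here the FOXA1 list without the CTD stood above the other 3. CDH12, its neighbour on chromosome 5, had 33, 44, 30 and 28. CTNNA3, an alpha-catenin, had 51, 88, 56 and 65. The group was not uniform: CTNNA2, the neuronal alpha-catenin, had a mean ratio of 0.946 and CDH13, a cadherin without a transmembrane segment, one of 0.928.

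The IgLON genes, which code for small adhesion proteins anchored to neuronal membranes by a lipid, held both ends of the range. LSAMP had the second highest mean ratio, 2.30, with 21, 30, 24 and 25 peaks in 643 kb. NEGR1 stood at 0.789, with 12, 17, 8 and 11. NTM had 0 and 0 FOXA1 peaks and 1 and 1 FOXA2 peaks in 966 kb. OPCML had 0 peaks of any list in 1118 kb. The mean of its chromosome was 12.1 to 16.8 peaks per Mb in the FOXA1 and FOXA2 lists. NTM and OPCML are neighbours on chromosome 11, and the emptiness reached beyond both. The nearest FOXA peak before OPCML was 427 kb away, inside NTM, and the nearest after it 1319 kb away. The first replicates of SOX2 and of the fusion also had 0 peaks in OPCML and in NTM.

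Other groups were on the sparse side. The glypicans, heparan sulphate proteins of the cell surface, had pooled ratios between 0.294 and 0.430 over the 4 lists. GPC5 held 1, 4, 2 and 3 peaks and GPC6 held 4, 7, 5 and 5, in genes of 1469 and 1191 kb. The neurexin relatives had pooled ratios between 0.474 and 0.664. Among them CNTNAP2, which gathers potassium channels beside the node of Ranvier, held 6, 15, 6 and 7 peaks in 2304 kb, a mean ratio of 0.201. Nothing was found over 850 kb of it, the longest stretch of that gene without a peak in any combined list. CNTNAP5, of the same family, was at 1.09, and NRXN3, a presynaptic receptor, at 0.761. The fragile-site genes coding for enzymes differed as well. FHIT, a nucleotide hydrolase gene in the most fragile site of lymphocytes, held 3, 11, 5 and 8 peaks (mean ratio 0.253). WWOX, an oxidoreductase gene in another such site, was at 1.22, IMMP2L, a mitochondrial peptidase gene, at 1.06, and MACROD2, which removes ADP-ribose from proteins, at 0.780.

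The 8 genes for large extracellular and receptor proteins spanned nearly the whole range. EYS, needed by photoreceptors, held 48, 82, 72 and 79 peaks, a mean ratio of 2.17. ERBB4, a neuregulin receptor, stood at 1.64 and CSMD3 at 1.49. LRP1B, an endocytic receptor, was near the mean at 0.964. PTPRD, a receptor phosphatase, was at 0.656, TENM2, a teneurin, at 0.514 and CSMD1 at 0.505. PTPRT, a receptor phosphatase like PTPRD, held 0, 4, 1 and 4 peaks in 1158 kb, a mean ratio of 0.120. The scaffold gene DLG2 was at 1.52, with 35, 69, 36 and 56 peaks, and MAGI2, another synaptic scaffold, at 1.01. DPP10 and KCNIP4, auxiliary subunits of potassium channels, were at 1.21 and 0.636, and NKAIN2, a partner of the sodium pump, at 0.957. Of the remaining genes SGCZ, a sarcoglycan, stood at 1.35, AUTS2, a neurodevelopmental regulator, at 0.983, DAB1, the reelin adaptor, at 0.670 and RBFOX1, a splicing factor, at 0.662.

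A gene can be dense because it lies in a dense region. Each gene was therefore set beside its flanks, the stretches of the gene's own length on both sides. All 4 FOXA1 and FOXA2 lists were denser in the gene than in its flanks for 9 of the 37 genes, against 18.4% of the other long genes, and sparser for 5, against 20.6%. PTPRT was the only gene of the 37 whose interval lay below its flanks in all 4 lists. Among the other long genes, which are shorter on average, this was 0%. The flanks of PTPRT held 33 peaks of FOXA1 at full length, 14.2 per Mb, where the gene had 0. With FOXA1 lacking its CTD the gene had 3.45 per Mb and its flanks 13.8, and in the FOXA2 lists the gene had 0.864 and 3.45 against 16.0 and 18.1. The nearest FOXA peaks outside the gene lay 106 kb before and 139 kb after it. MAGI2 and RBFOX1 were below their flanks in 2 lists each. MAGI2 had 16.0 peaks per Mb of FOXA2 without its CTD against 34.1 in its flanks.

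The opposite was seen in CSMD1, which was sparse for its chromosome and dense for its region. It had 10.2 peaks of FOXA1 at full length per Mb, against 4.13 in its flanks (ratio 2.47, 1.24 to 4.99) and 16.3 over the chromosome. Without the FOXA1 CTD it was 2.00 times as dense as its flanks (1.13 to 3.54), and the FOXA2 values of 1.57 (0.796 to 3.03) and 1.80 (0.898 to 3.58) had intervals that include 1. AUTS2 had 17.6 per Mb against 7.53 in its flanks (2.33, 1.18 to 4.65) in the same list. In the other 3 lists AUTS2 was 1.48 to 1.68 times as dense as its flanks, with intervals that include 1. The densest genes sat in dense regions. PCDH15 had 37.3 per Mb of FOXA1 at full length and its flanks 30.4 (ratio 1.23, 0.892 to 1.67), and none of its 4 intervals excluded 1. The same held for LSAMP, CDH18 and CDH12. CTNNA3 exceeded its flanks in 1 list, FOXA1 without its CTD (1.47, 1.10 to 1.95), and EYS in 1, FOXA2 without its CTD (1.39, 1.03 to 1.86). ERBB4 and SGCZ also had an interval above their flanks in 1 list each. OPCML and NTM lay in flanks with 0 to 2 peaks in any of these lists.

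**Figure D3:**
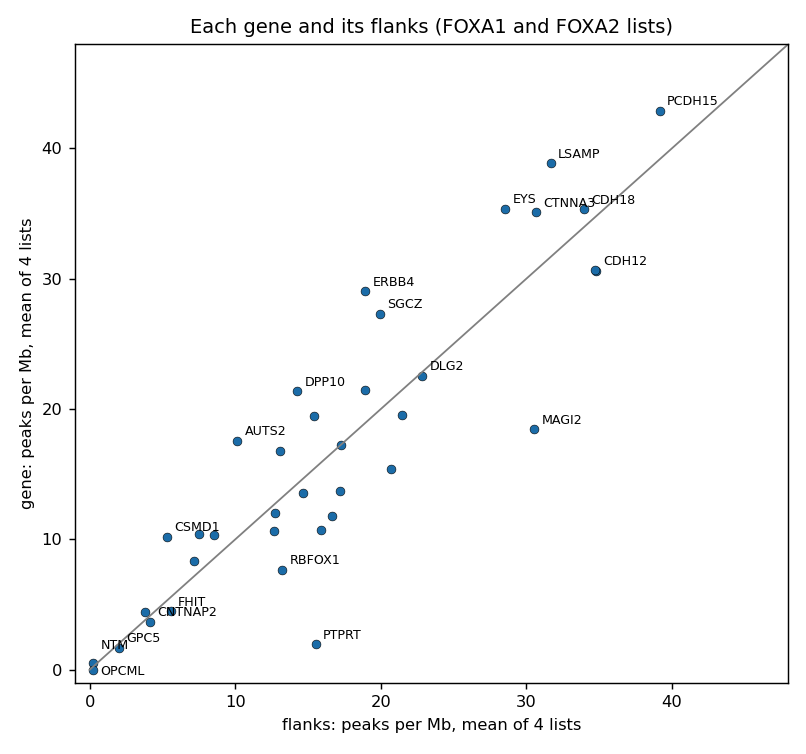
Peaks per Mb in each gene (y axis) against peaks per Mb in its flanks (x axis), both as the mean of the 4 FOXA1 and FOXA2 lists, with the line of equal density; the more outlying genes are named. Most genes follow the line from OPCML and NTM to PCDH15, while PTPRT and MAGI2 lie below it and AUTS2, CSMD1, ERBB4 and DPP10 above.

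The next question was whether deletion of the CTD changed occupancy inside these genes. The lists of a pair differ in length and in strictness, with the weakest peak at an IDR of 0.200 for FOXA1 at full length and 0.0501 without the CTD, and of 0.350 and 0.251 for FOXA2. The change inside the genes was divided by the change outside them. This allows for list length but does not remove the difference in strictness, since density inside the genes also changed with the IDR limit. For FOXA1, peaks in the 37 genes numbered 700 at full length and 1128 without the CTD, a factor of 1.61, and those outside 35787 and 47667, a factor of 1.33. The ratio of both was 1.21 (1.10 to 1.33). For FOXA2 the factors were 1.11 inside and 1.21 outside, a ratio of 0.918 (0.834 to 1.01), whose interval includes 1.

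More FOXA1 peaks without the CTD than with it were found in 34 of the 37 genes, against 82.7% of the other long genes, and in 0 genes were there fewer. Such counts depend on gene length too, and the other long genes are shorter on average. The factor was above the one outside in 28 of 34 genes with peaks in both lists, against 69.7% of the other long genes. For FOXA2 more peaks were found in 24 of 37 genes (against 65.7%), fewer in 7, and the factor was above that outside in 11 of 36 (against 53.1%). The other long genes moved the same way for FOXA1, with a ratio of 1.14 (1.09 to 1.21) against the rest of the genome. Set against them, the FOXA1 value of the 37 genes was 1.07 (0.960 to 1.19), and the interval includes 1. The FOXA2 value against the other long genes was 0.874 (0.786 to 0.973).

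The FOXA1 change exceeded the FOXA2 change inside the genes by a factor of 1.32 (1.15 to 1.51). In the other long genes this factor was 1.09 (1.01 to 1.17), and the 37 genes exceeded the other long genes by 1.22 (1.05 to 1.42). The intervals cover counting error only, and the difference was not tested between replicates. The lists differ in IDR limit, and these factors were not computed at a common limit.

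**Figure D4:**
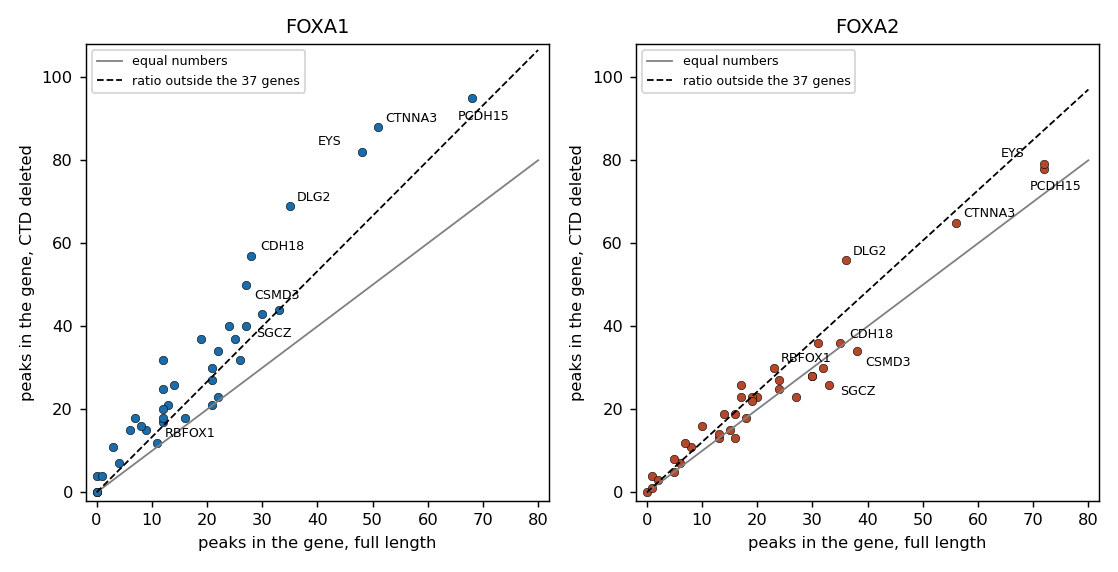
Peaks in each of the 37 genes without the CTD (y axis, number) against those at full length (x axis, number) for FOXA1 (left) and FOXA2 (right), with the line of equal numbers and the dashed line of the ratio outside the genes. Most FOXA1 points lie above the dashed line, among them CDH18 (28 and 57) and DLG2 (35 and 69), and most FOXA2 points lie between or below the lines.

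No single gene with at least 20 peaks in both lists had an interval that excluded 1, among 17 such genes for FOXA1 and 16 for FOXA2. For FOXA1 the highest ratios were those of CDH18 (28 to 57 peaks, ratio 1.53, 0.972 to 2.403) and DLG2 (35 to 69 peaks, 1.48, 0.985 to 2.22). The lowest were AUTS2, with 21 peaks in both lists (0.751, 0.410 to 1.37), and CTNND2, the delta-catenin gene, with 22 and 23 (0.785, 0.437 to 1.41). For FOXA2, DLG2 was highest again (36 to 56 peaks, 1.28, 0.844 to 1.95), followed by RBFOX1 (23 to 30, 1.08, 0.625 to 1.85). SGCZ was lowest (33 to 26, 0.650, 0.388 to 1.09), then MAGI2 (27 to 23, 0.702, 0.403 to 1.22). MAGI2 had 19 FOXA1 peaks at full length and 37 without the CTD, so its counts differed in opposite directions in the FOXA1 and FOXA2 pairs. PTPRD, singled out after its values were seen, went from 12 to 32 FOXA1 peaks (2.00, 1.03 to 3.89) and from 24 to 27 FOXA2 peaks.

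The FOXA3 pair cannot answer the question. Of the 73 peaks of its full-length list in these genes, 70 are rows identical to rows of the list without the CTD, and the same number of peaks was found with and without the CTD in 29 genes. More peaks without the CTD were found in 8 genes, against 17% of the other long genes. The pooled ratio was 0.969 (0.706 to 1.33). EYS and CTNNA3 held most FOXA3 peaks, with 7 each at full length and 8 and 9 without the CTD. PCDH15 and MAGI2 held 6 each at full length.

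SOX2 and its fusion with the FOXA2 CTD form the reverse case, in which a CTD is added. The single SOX2 peak in the genes lay in the first part of PCDH15, at chr10:55410338-55411127, 217 kb into the gene. The fusion and FOXA1 without its CTD had a peak at the same place. The lists differ strongly in strictness, with the weakest peak at an IDR of 0.1 for SOX2 and 0.912 for the fusion. The fusion had more peaks than SOX2 in 22 genes, against 48% of the other long genes, which are shorter on average. This count compares unlike limits. The factor of 80 inside, from 1 peak, against 47.5 outside (119 and 5649 peaks) gives a ratio of 1.69 with an interval from 0.233 to 12.2. Gene-free stretches, which hold 1245 SOX2 and 2115 fusion peaks, are left out there, and with them in the outside count the ratio was 14.1 (1.95 to 101.1). The value thus rests on which peaks count as outside. In the first replicates, where the numbers are larger, the ratio was 1.13 (0.967 to 1.31). CTNNA3 led the fusion list with 13 peaks, followed by PCDH15 with 12, DLG2 with 10 and LSAMP with 8, and 15 genes had 0. In the first replicates the leading genes were DLG2 with 28 SOX2 and 80 fusion peaks, CTNNA3 with 30 and 79, and PCDH15 with 24 and 64.

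Fusion peaks in these genes rarely met FOXA peaks. Of the 80, 3 (3.75%, 1.28 to 10.5) overlapped a peak of full-length FOXA2, against 14.3% of the fusion peaks outside the genes, a difference of -10.6 percentage points (-13.2 to -3.79). Overlap with full-length FOXA1 was 5.00% inside and 12.8% outside. With FOXA2 lacking its CTD it was 7.50% and 16.1% (difference -8.64, -12.8 to -0.677). With FOXA1 lacking its CTD it was 6.25% and 10.3% (difference -4.02, -7.66 to 3.58), an interval that includes 0. The fusion peaks inside the genes had a median strength of 2.57, against 2.77 outside. The weakest peak of the fusion list had an IDR of 0.912. At an IDR of at most 0.01 the list kept 382 peaks, with 0 in these genes. The overlap was not computed for the other long genes, so the low shares are not read as particular to these genes. PCDH15 at chr10:55498300-55498789 was one of the places where the fusion met FOXA peaks, namely FOXA1 without its CTD and both FOXA2 lists. LSAMP held 3 further such places, one of them close to its start, with the fusion summit 452 bp inside the gene.

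Within the FOXA pairs, 63.3% (59.7 to 66.8) of the FOXA1 full-length peaks in the genes overlapped a peak of the list without the CTD, against 55.7% outside, a difference of 7.61 percentage points (3.94 to 11.1). With the stricter of both IDR limits this difference was 3.65 (-2.28 to 8.42), an interval that includes 0. In the other direction 39.4% inside and 41.9% outside were shared (difference -2.53, -5.37 to 0.389). For FOXA2 the shares were 50.4% inside and 51.6% outside for the full-length list, and 45.0% and 42.5% for the list without the CTD, and both intervals of the difference include 0.

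When overlapping peaks of all 8 lists were merged, the genes held 2039 places. A peak of 1 list alone made up 54.9% of them, as in the rest of the genome (54.7%). The largest such class was FOXA1 without its CTD, with 384 places, 18.8% (17.2 to 20.6) against 13.3% elsewhere, a difference of 5.50 percentage points (3.85 to 7.27). FOXA2 without its CTD was alone at 313 places, 15.4% against 18.3%, a difference of -2.93 (-4.45 to -1.29). Both shares were set against the rest of the genome and were not computed for the other long genes. In the other long genes FOXA1 peaks also rose more than elsewhere after CTD deletion (ratio 1.14, 1.09 to 1.21). Against them the genes described here had a FOXA1 ratio of 1.07 (0.960 to 1.19), an interval including 1. The FOXA1 lists also differ in length and IDR limit, so the excess is not read as particular to these genes. All 4 FOXA1 and FOXA2 lists met at 182 places (8.93%, against 8.97%), and all 6 FOXA lists at 30 (1.47%, against 1.69%). MAGI2 had 4 of these 30, and DLG2 and PCDH15 had 3 each. The DLG2 start printed above is one of them.

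Of the peaks inside the 37 genes, the strongest of each list are given here, and exons and introns were not analysed. Among them EYS held the strongest FOXA1 peak at full length, which ranked 111 among the 37219 peaks of its list, at chr6:65616385-65617506 with a strength of 18.8, and the strongest in the genes without the CTD at the same place, with 25.6. About 90 kb from its start, the place also had peaks of both FOXA2 lists. The strongest peak of FOXA2 without its CTD in the genes, 27.7, was also in EYS, at chr6:65623294-65624390, where all 6 FOXA lists had a peak. For FOXA2 at full length the strongest in the genes lay in CNTNAP2, one of the sparsest genes, at chr7:146822734-146823614 with a strength of 19.3, and ranked 36 among the 44637 peaks of the list. IMMP2L held the strongest peak in the genes of both FOXA3 lists, an identical row in both, at chr7:111424598-111425265 with 20.2. The strongest fusion peak in the genes, 4.91, lay in CTNNA3 at chr10:67098322-67099185, ranked 790 of 7844 and met no other list.

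The last question was where along the genes the peaks lay. This could be asked for the 31 genes with a known strand. Peaks were found in every part of the length. Cut into 3 equal parts, the genes held, from first to last, 33.1%, 34.7% and 32.2% of the peaks of FOXA1 at full length and 34.5%, 33.1% and 32.4% of those without its CTD. For FOXA2 at full length the parts held 33.3%, 36.4% and 30.3%. FOXA2 without its CTD had 29.8% (26.6 to 33.2) in the first part, just under the 33.3% of length there, then 36.6% and 33.6%. At an IDR of at most 0.01 its share in the first part was 1.07 times an even share (0.791 to 1.38). FOXA3 at full length had 40.6% (29.8 to 52.4) in the first part, and the fusion had 42.7% (32.1 to 53.9) in the last, with intervals that include an even share. Cut into 10 equal parts, the genes had shares that ran from 7.24% to 11.4% and from 9.05% to 11.1% in the FOXA1 lists, and from 7.20% to 13.0% and from 7.68% to 12.8% in the FOXA2 lists. Of these 40 values 5 had an interval without the even share. The fifth part was high in both FOXA2 lists, at 13.0% (10.7 to 15.8) and 12.8% (10.6 to 15.4). The ninth part was low at full length for FOXA1, at 7.24% (5.40 to 9.64), and for FOXA2, at 7.20% (5.47 to 9.41), and the part numbered 3 was low for FOXA2 without its CTD, at 7.68% (5.99 to 9.80).

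**Figure D5:**
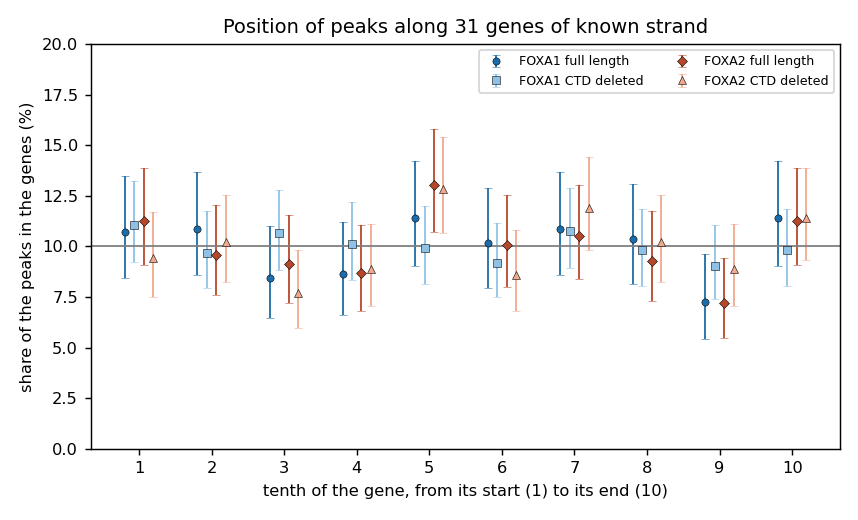
Share of the peaks (y axis, percent) in each of 10 equal parts of the gene from its start to its end (x axis) over 31 genes, for the 4 FOXA1 and FOXA2 lists, with Wilson 95% intervals and a line at an even share. The values stay between 7.20% and 13.0%, and the part at the start does not stand out.

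Near the start of the whole span the numbers were small. Within 1 kb inside it there was a FOXA1 full-length peak in LSAMP, 635 bp in, and a fusion peak in the same gene, 452 bp in. FOXA2 without its CTD had such a peak in MACROD2 (423 bp) and in IMMP2L (278 bp), and the other lists had 0. Within 5 kb, which is 0.348% of the length, lay 3 and 6 FOXA1 peaks at full length and without the CTD (0.517% and 0.639%), and 3 and 7 FOXA2 peaks (0.450% and 0.927%). Of these shares only that of FOXA2 without its CTD had an interval (0.450 to 1.90) above the share of length. Within 50 kb, which is 3.48% of the genes' length, lay 4.14% (2.80 to 6.08) and 4.69% (3.51 to 6.23) of the FOXA1 peaks at full length and without the CTD. Of the FOXA2 peaks, 4.95% (3.54 to 6.87) lay there at full length and 3.84% (2.69 to 5.46) without the CTD. Of these 4 intervals, those of FOXA1 without its CTD and FOXA2 at full length lie just above the share of length. That share pools genes of unlike length and density, so peaks placed evenly inside each gene need not match it. The same holds for the shares within 5 kb, where FOXA2 without its CTD had only 7 peaks. An excess near the start is therefore not read from any of these intervals.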

How the data were processed

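Flag ChIP-seq peak lists of 8 groups were analysed. Reads were processed with Bowtie2 2.4.4, SAMtools 0.1.18 and MACS2 on hg38, per the submitters' processing notes. The 8 combined lists have the layout of the IDR program. The deposited columns used were the IDR score, the −log10 p of each replicate and the −log10 IDR, all the authors' values, and served to rank and filter peaks. The lists of the first replicate give fold enrichment over local background and −log10 p, as deposited by the authors, and only their positions and p were used. Of 14 lists 10 were used and 4 were copies. The IDR limit and control were not given in the sources used here.

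Peaks on chromosomes 1 to 22 and X were assigned by summit to RefSeq genes of GRCh38.p14. Strand came from the RefSeq table of starts. Intervals were exact Poisson, Woolf, Wilson and Newcombe, computed with scipy 1.17.1 under Python 3.11.15. The density and CTD ratios were checked on simulated lists of independent, evenly placed peaks, with the same density factor in all 37 genes. The real genes differ widely in density, so this does not show that the pooled intervals are wide enough. The Wilson and Newcombe intervals were not checked on simulated data. Alternatives were a stricter IDR, other references and overlaps, and equal numbers of peaks. All 37 genes are given by role with their density. Picked for values in each list were the 3 densest and sparsest, the extreme CTD ratios with at least 20 peaks in both lists, those with most FOXA3, SOX2 or fusion peaks, and those with the strongest peaks; further genes given per list, and those set beside their flanks, were chosen after their values were seen, as were the flanks, equal numbers for density and gene-free stretches in the CTD ratio. Members, groups and lists were chosen with earlier results of these data known.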

Additional observations from a re-analysis of the deposited data

Results flagged for a closer look

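The change of peak numbers after CTD deletion, inside the 37 genes relative to outside, was 1.21 for FOXA1 and 0.918 for FOXA2. Their ratio of 1.32 (1.15 to 1.51) stands out because both factors lost the same domain and the values lay on opposite sides of 1, although the FOXA2 interval (0.834 to 1.01) includes 1. In the other long genes the same ratio was 1.09 (1.01 to 1.17). The interval covers counting error over peaks, and the difference was not tested between replicates, since each group has 1 combined list. The lists also differ in IDR limit, which the ratio does not remove.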

How the results depend on the processing

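For 25 pooled values, 105 values under alternatives were computed. Of these 85 stayed inside the interval given. Among the 42 alternatives of the 8 values whose interval leaves out no change, 2 turned direction and 17 had an interval that includes no change. Among the 63 others, 15 crossed no change. With an IDR of at most 0.01 the density ratio fell to 0.720 for FOXA1 at full length and 0.825 for FOXA2 without its CTD, SOX2 and the fusion had a ratio of 0 (no peak left in the genes), the FOXA1 CTD ratio was 1.67, and the share of FOXA2 peaks without the CTD in the first of 3 parts turned to 1.07 times even. The FOXA2 full-length list has 0 peaks at that limit, so it and its pair gave no value. The SOX2 pair and the fusion's position gave none because SOX2 and the fusion had 0 peaks in the genes. With equal numbers of the strongest peaks the density ratios were 0.888 and 1.10 for FOXA1 at full length and without its CTD, and 0.869 and 0.778 for FOXA2. Against flanks FOXA1 without its CTD had 1.08. Against other long genes FOXA2 at full length had 1.10, the fusion 0.930 and the FOXA1 CTD ratio 1.07. The fusion had 0.583 with gene-free stretches in the mean and turned to 1.01 in its first replicate. The SOX2 pair's ratio was 14.1 with gene-free stretches counted as outside. The first of 10 parts of the genes held 1.12 times an even share of FOXA2 full-length peaks. The excess of shared FOXA1 full-length peaks was 3.65 percentage points (-2.28 to 8.42) at the pair's stricter IDR limit, and that of FOXA3 1.68 with summits within 100 bp. The cause was not tested. No paired analysis was possible because each group has 1 combined list, so replicate numbers cannot be used. Depth is unknown, and lists of 1 replicate were used for SOX2 and the fusion only.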
